A study of Mus musculus with 40 samples.

Results

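*Nlrp4a*, *Nlrp4b*, *Nlrp4e*, *Nlrp4f*, *Nlrp4g*, *Nlrp9a*, *Nlrp9b*, *Nlrp9c* and *Nlrp14* are NLRP genes of the mouse germ line, and the levels of these 9 of 24056 measured genes were followed through oocyte maturation and the first cleavage with and without maternal TDP-43. They were selected as reproductive NLRP genes with a row in the expression table, among which *Nlrp4e* was lower in *Tdp43* oKO oocytes. The FPKM of *Nlrp4e* in full-grown oocytes (FGO) and MII oocytes was thus the measured value the genes were chosen by, and the oocyte comparisons are described without a test. *Nlrp4g* was listed at 0 in all 24 libraries. The other 8 genes passed the filter on low values (a mean of at least 1 FPKM over the libraries compared) at every stage, and their lowest group mean was 1.81 FPKM, for *Nlrp9b* in control late 2-cell embryos.

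TDP-43 is an RNA- and DNA-binding protein encoded by *Tdp43* (annotated as *Tardbp*). Control females were *Tdp43* flox/flox, and *Tdp43* oKO females were *Tdp43* flox/flox;*Zp3*-Cre, in which a Cre gene active in growing oocytes removes the third exon of *Tdp43*, so that both groups carried the floxed alleles and only oocytes lost the gene. All females were 7 to 8 weeks old, of a mixed C57BL/6J and ICR background. FGO were collected 48 h after PMSG. Times after HCG were 13 h for MII oocytes, 30 h for embryos at the late 1-cell stage (1C), 36 h for early (E2C) and 48 h for late (L2C) 2-cell embryos. Embryos came from matings with ICR males, so that they inherited an intact paternal *Tdp43*. In a second experiment, called Trim-away, 1-cell embryos were injected with mRNA of the ubiquitin ligase Trim21. With it they received an antibody to TDP-43, which directs the protein to degradation, or control IgG (Inj-Contr). The injected embryos were then cultured and were collected at L2C. The libraries titled KD carry a wild-type genotype label and those titled NC, the IgG controls, carry the knockdown label. The titles were used here, and the direction of every Trim-away difference rests on that choice. Each of the 12 groups held 2 smart-seq2 libraries of pooled oocytes or embryos. The sources do not state whether the 2 pools came from different animals, so p-values measure only the spread between libraries. Within a pool, fewer cells holding a transcript and less of it per cell cannot be told apart.

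NLRP proteins are built from a pyrin domain, an ATP-binding NACHT domain and leucine-rich repeats. Some members, such as NLRP1 and NLRP3, nucleate inflammasomes in immune cells, whereas a reproductive branch is stored as mRNA and protein in the growing oocyte. The mouse genome has expanded the *Nlrp4* and *Nlrp9* families, where the human genome has a single *NLRP4* and a single *NLRP9*. NLRP5 (MATER) and NLRP4F belong to the subcortical maternal complex, a protein assembly of the egg cortex needed for cleavage. NLRP14 is a maternal-effect protein required for development past the first cleavages. Depletion of NLRP4E from zygotes stops preimplantation development, NLRP9B forms an inflammasome in intestinal epithelium during virus infection, and human NLRP4 restrains innate immune signalling. TDP-43 is known to bind UG-rich stretches of RNA.

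In mm9, 7 of the 8 expressed genes lie on chromosome 7. *Nlrp4e* spans 60996 bases (chr7:24086294-24147289, plus strand) with 9 exons and ends 23.6 kb before *Nlrp5*. *Nlrp9c* (chr7:27107492-27188719, minus strand), *Nlrp4a* (chr7:27220132-27261161, plus strand) and *Nlrp9a* (chr7:27320042-27360634, plus strand) are neighbours, with gaps of 31.4 and 58.9 kb. *Nlrp4b* (chr7:11273142-11315517, plus strand), *Nlrp9b* (chr7:20593372-20658655, plus strand) and *Nlrp14* (chr7:114310504-114341616, plus strand) stand alone on this chromosome, and *Nlrp4f* is on chromosome 13 (chr13:65278419-65307276, minus strand). Position did not group the genes by family, since *Nlrp4a* sits between a pair of *Nlrp9* genes.

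The coding sequences are close copies within a family. Identity was 78.2% to 86.2% over the 6 pairs of *Nlrp4* genes, 83.2% to 87.7% over the 3 pairs of *Nlrp9* genes and 61.0% to 65.9% over the other 19 pairs. *Nlrp4e* and *Nlrp4a* were the closest *Nlrp4* pair, and *Nlrp9a* and *Nlrp9c* the closest *Nlrp9* pair. Of all 50-base windows of the *Nlrp4e* transcript, 10.4% also occurred in *Nlrp4a* or *Nlrp4c*, the highest share among the 8 genes, against 1.85% for *Nlrp4a*, 0.0869% for *Nlrp4f* and 0% for *Nlrp4b* and *Nlrp14*. The share was 6.56%, 6.22% and 4.99% for *Nlrp9a*, *Nlrp9b* and *Nlrp9c*, which matched only each other. At 100 bases no gene exceeded 1.36%. How reads matching several copies were assigned is not given in the sources used here, so the levels of *Nlrp4e* and the *Nlrp9* genes carry this uncertainty. *Nlrp4c*, the other gene that shares windows with *Nlrp4e*, was low, at a mean of 4.23 FPKM over the 24 libraries.

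The 250 bases upstream of the RefSeq start (GRCm38.p6) were found for 7 of the 9 genes, the exceptions being *Nlrp4g* and *Nlrp14*. *Nlrp9a* and *Nlrp9c* are shown because their upstream sequences are nearly the same while their levels parted in the E2C embryos described below. The capitals mark a run of 106 bases that the pair shares without a mismatch, within 202 aligned bases at 96.5% identity. *Nlrp4e* is shown because its level separated the genotypes most. The *Nlrp9a* sequence is chr7:26534773-26535022 (plus strand), the *Nlrp9c* sequence chr7:26403701-26403950 (minus strand) and the *Nlrp4e* sequence chr7:23300942-23301191 (plus strand), each written 5′ to 3′ on its gene's strand.
Nlrp9a: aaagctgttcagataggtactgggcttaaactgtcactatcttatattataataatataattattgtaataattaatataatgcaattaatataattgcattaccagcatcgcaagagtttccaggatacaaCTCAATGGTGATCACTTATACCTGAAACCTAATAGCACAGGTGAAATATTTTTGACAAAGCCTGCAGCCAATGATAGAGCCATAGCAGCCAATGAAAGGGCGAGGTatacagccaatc
Nlrp9c: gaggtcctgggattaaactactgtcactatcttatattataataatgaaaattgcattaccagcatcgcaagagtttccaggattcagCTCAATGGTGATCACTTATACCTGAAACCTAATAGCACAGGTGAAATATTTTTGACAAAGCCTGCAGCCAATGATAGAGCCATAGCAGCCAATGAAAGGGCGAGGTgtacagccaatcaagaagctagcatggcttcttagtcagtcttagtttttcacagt
Nlrp4e: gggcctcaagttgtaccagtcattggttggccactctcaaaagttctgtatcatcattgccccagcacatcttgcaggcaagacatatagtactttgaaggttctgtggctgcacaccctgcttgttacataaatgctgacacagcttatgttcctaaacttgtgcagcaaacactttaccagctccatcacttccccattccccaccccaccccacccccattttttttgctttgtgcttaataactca
The shared run starts 118 bases before the start of *Nlrp9a* and 162 bases before that of *Nlrp9c*. *Nlrp4e* shared no run longer than 10 bases with any of the other 6 promoters. TATAAA, the homeobox sequence TAATTG, the E-box CANNTG and TGTGTG were searched on both strands. They occurred in 1, 2, 6 and 2 of the 7 windows, and in 12.4%, 7.17%, 66.2% and 17.9% of all 32851 windows of that length, and *Nlrp4e* held none of the 4. A match or its absence describes the letters in this window alone.

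Because TDP-43 binds UG repeats, runs of TG of at least 12 bases on the transcribed strand were counted in the mm9 gene bodies. *Nlrp4e* had 3, or 0.492 per 10 kb, and 26.4% of the 13443 genes of 10 kb or more had a lower density, around a median of 0.861. The other 7 genes had 1 to 6 repeats, from 0.236 per 10 kb in *Nlrp4b* to 1.22 in *Nlrp4a*. Since 85.3% of genes of this length had such a repeat, its presence does not set these genes apart. The longest repeat was 54 bases in *Nlrp4a*, in an exon, and 50 in *Nlrp9c* and 48 in *Nlrp9a*, both in introns. That of *Nlrp4e*, 48 bases in an intron, is shown in capitals within chr7:24130994-24131121 of mm9 (plus strand).
Nlrp4e repeat: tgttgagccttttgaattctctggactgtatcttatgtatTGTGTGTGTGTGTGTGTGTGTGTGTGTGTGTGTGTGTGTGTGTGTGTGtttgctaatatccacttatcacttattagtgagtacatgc

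Library totals ranged from 124265 to 432671 FPKM, and 6146 to 9036 genes had at least 1 FPKM. The lowest totals were those of *Tdp43* oKO L2C (124265 and 126713, against 209102 and 215926 in their controls). *Tardbp* was lower in every *Tdp43* oKO library than in both controls of its stage, from 0.884 to 4.84 FPKM over the 10 *Tdp43* oKO libraries and from 6.14 to 20.3 over the 10 controls. In Trim-away L2C it was 3.65 and 3.85 FPKM in the libraries titled KD and 5.29 and 5.95 in Inj-Contr, a log2 difference of -0.48 that was not called. Trim-away acts on the protein, so the transcript does not check those labels. Differences are given as log2 fold changes of FPKM + 1 from limma, and a gene was called with a Benjamini-Hochberg adjusted p of at most 0.05 over all genes tested and a change of at least 2-fold. FPKM is a value per transcript length, which allows levels of different genes to be set side by side. Reads per library are unknown, so no counting error can be given.

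In control FGO, *Nlrp14* held 40.9% of the summed FPKM of the 8 genes and *Nlrp4e* 1.9%. *Nlrp14* (806 ± 93.7 FPKM, SD, n = 2) was followed by *Nlrp4f* (308 ± 32.4), *Nlrp9c* (238 ± 3.71), *Nlrp4b* (171 ± 1.26), *Nlrp4a* (165 ± 41.0), *Nlrp9b* (128 ± 7.62), *Nlrp9a* (116 ± 11.1) and *Nlrp4e* (37.5 ± 9.55). The libraries of *Nlrp4b* and *Nlrp4a*, and of *Nlrp9b* and *Nlrp9a*, overlapped, and the other neighbours in this order did not. All 8 were abundant. *Nlrp14* was above 99.6% of the 17504 genes with a value above 0 in control FGO and *Nlrp4e*, the least expressed member, above 91.1%.

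*Nlrp4e* was lower in *Tdp43* oKO at 4 of 5 stages and was not lower at L2C. In FGO it was 10.6 and 8.67 FPKM in *Tdp43* oKO and 44.2 and 30.7 in control. In MII oocytes it was 14.9 and 16.7 FPKM in *Tdp43* oKO and 81.7 and 84.9 in control. Every mutant library was below both controls, and the mutant mean was 25.7% of control in FGO and 19.0% in MII oocytes (log2 -1.84 and -2.33). These values chose the genes, so they carry no test. No other member reached a 2-fold difference in oocytes. The next were *Nlrp4a* and *Nlrp4f* in MII oocytes (log2 -0.63 and -0.52), and *Nlrp9a* was higher in the mutant in both kinds of oocyte (0.39 and 0.31). Libraries of the genotypes did not overlap for 1 higher and 3 lower genes in FGO (29.1% and 26% of all genes compared) and for 2 higher and 5 lower in MII oocytes (25.7% and 35.2%).

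After fertilization the difference of *Nlrp4e* was measured in embryos that the selection did not use, although it was known there too when the genes were chosen. These embryos came from oocytes of the same 2 kinds of females, and stored oocyte transcript was not told apart from new transcript. The embryo tests are therefore not independent of the oocyte values that chose the genes (19.0% of control for *Nlrp4e* in MII oocytes). In 1C embryos *Nlrp4e* was 13.0 and 13.8 FPKM in *Tdp43* oKO and 69.7 and 61.6 in control. The groups stood well apart, with 20.4% of the control level left (log2 -2.21, SE 0.18, 95% interval -2.60 to -1.82, limma adjusted p = 2.59e-07). In E2C embryos it was 4.34 and 6.54 FPKM in *Tdp43* oKO and 35.4 and 35.9 in control. Both mutant libraries were again far below both controls, at 15.3% of the control level (log2 -2.53, SE 0.28, 95% interval -3.11 to -1.95, adjusted p = 6.05e-06). *Nlrp4e* was the only member called at 1C, where 2.46% of all 8211 genes were called lower and 1.75% higher, and the only member called lower at E2C, where 8.13% of 6657 genes were. In both comparisons it was called under each alternative run, every left-out library included.

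At L2C *Nlrp4e* was 2.63 and 3.09 FPKM in *Tdp43* oKO and 2.58 and 2.59 in control. Both genotypes were at their lowest level of the 5 stages, and the mutant values lay just above those of control (log2 0.10, SE 0.23, 95% interval -0.38 to 0.59, adjusted p = 0.698). The *Tdp43* oKO effect at L2C exceeded that at E2C by a log2 of 2.63 (adjusted p = 2.2e-05 for the difference of effects), and 8.51% of 7836 genes had a difference called in that direction. The median of all genes at L2C was -0.79 in *Tdp43* oKO, and median-ratio scaling of the libraries moved values up by 0.71. Relative to that median *Nlrp4e* was 0.89 higher, and after scaling 0.84 (adjusted p = 0.0174), still under 2-fold.

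**Figure D1:**
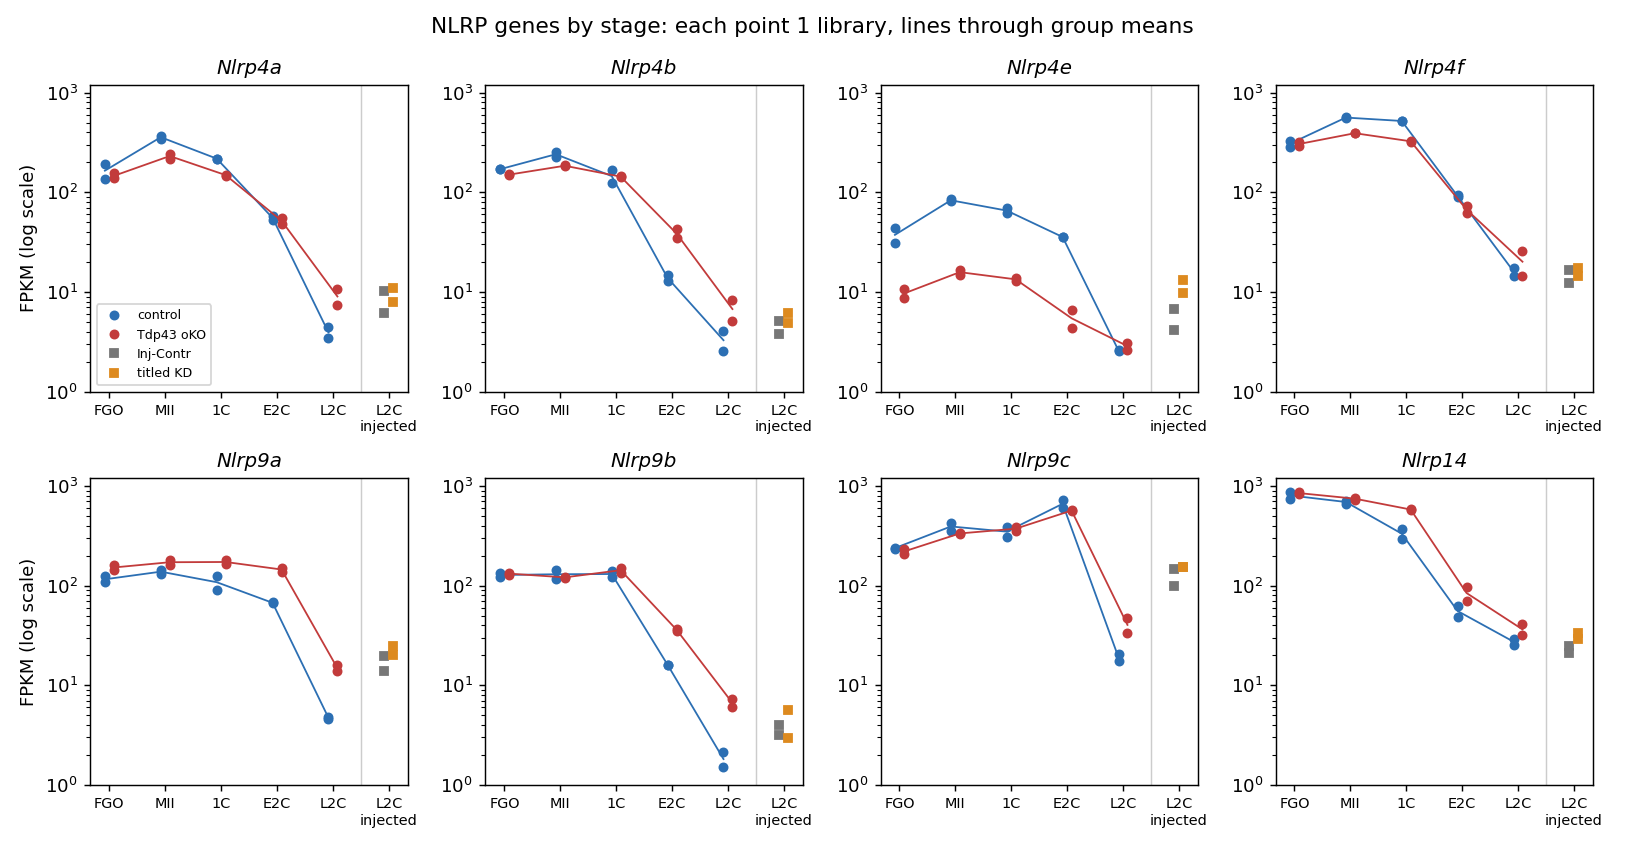
FPKM (log axis) of the 8 expressed *Nlrp* genes at FGO, MII, 1C, E2C and L2C. Each point is a library, lines join group means of control (blue) and *Tdp43* oKO (red), and squares are the injected L2C libraries, Inj-Contr in grey and those titled KD in orange. *Nlrp4e* separates the genotypes from FGO to E2C and meets at L2C, where control was 2.58 and 2.59 FPKM.

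In Trim-away L2C *Nlrp4e* was higher in the libraries titled KD, opposite in direction to *Tdp43* oKO from FGO to E2C but not at L2C, without passing both thresholds. It was 13.0 and 9.72 FPKM in the libraries titled KD and 4.18 and 6.79 in Inj-Contr. Both libraries titled KD were above both controls, at 208% of their mean (log2 0.95, SE 0.27, 95% interval 0.39 to 1.51, adjusted p = 0.0126), just under 2-fold. It became a call with a pseudocount of 0.1 (1.07), after median-ratio scaling (1.01) or quantile normalization (1.05), without KD replicate 2 (1.15) and without Inj-Contr replicate 2 (1.24). None of the 8 members was called here, and 1 had an unadjusted p under 0.05, among 7.79% of 8100 genes called higher and 8.35% lower. The Trim-away effect on *Nlrp4e* was 0.85 above the *Tdp43* oKO effect at L2C, a difference that did not pass (adjusted p = 0.0673). The set of early 2-cell markers, whose summed level falls after E2C, was 380 to 427 FPKM in the libraries titled KD and 91.1 to 121 in Inj-Contr, with 4 of 6 called higher, the direction they had in *Tdp43* oKO L2C, where 6 of 6 were called higher. Its part in the result was not tested.

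The level of *Nlrp4e* over the 12 groups ran from 83.3 FPKM in control MII oocytes to 2.58 in control L2C, a 32.2-fold range. Control FGO (37.5) and control E2C (35.6) overlapped. *Tdp43* oKO MII oocytes (15.8) came below every control group from FGO to E2C, and *Tdp43* oKO 1C (13.4) overlapped with the L2C libraries titled KD (11.4), which overlapped with *Tdp43* oKO FGO (9.64). Inj-Contr L2C and *Tdp43* oKO E2C also overlapped (5.49 and 5.44). Within the *Nlrp4* family, *Nlrp4e* was 17.8% and 18.5% of the summed FPKM in control E2C and 2.92% and 3.69% in *Tdp43* oKO E2C, and 30.1% and 23.5% in the libraries titled KD against 15.9% and 17.5% in Inj-Contr.

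No other *Nlrp4* gene was called lower in *Tdp43* oKO. *Nlrp4a*, its nearest copy, was 148 and 151 FPKM in *Tdp43* oKO 1C and 218.5 and 218.3 in control. Both mutant libraries were lower, by less than 2-fold (log2 -0.55, SE 0.18, adjusted p = 0.0455). At E2C *Nlrp4a* was 48.3 and 55.6 FPKM in *Tdp43* oKO and 58.6 and 52.3 in control, which overlapped (-0.09, SE 0.28, 95% interval -0.67 to 0.48). At L2C it was 7.32 and 10.7 FPKM against 3.44 and 4.40, with both mutant libraries higher, and it was called (1.01, SE 0.23, adjusted p = 0.000717). *Nlrp4a* was thus higher in *Tdp43* oKO than in control at L2C, where *Nlrp4e* had no difference larger than its error. The *Nlrp4a* call was lost without *Tdp43* oKO replicate 2 (0.76) and without control replicate 1 (0.87).

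*Nlrp4f*, whose product is a member of the subcortical maternal complex, was 328 and 324 FPKM in *Tdp43* oKO 1C and 523 and 520 in control. The replicates lay close together and the genotypes apart, at 62.5% of control (log2 -0.68, SE 0.17, adjusted p = 0.00947), under 2-fold. At E2C it was 61.5 and 72.7 FPKM against 89.9 and 93.2 (-0.45, SE 0.25, adjusted p = 0.239), and at L2C the genotypes overlapped (0.26, SE 0.21, adjusted p = 0.277). After median-ratio scaling the L2C difference was 1.10 and passed both thresholds.

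*Nlrp4b* differed in the other direction. At 1C it was 145 and 143 FPKM in *Tdp43* oKO, between its control values of 166 and 125 (log2 0.00, 95% interval -0.37 to 0.37, adjusted p = 0.99). At E2C it was 34.5 and 42.7 FPKM in *Tdp43* oKO and 14.8 and 12.8 in control. Both mutant libraries held more than any control, 2.79 times the mean (1.41, SE 0.27, 95% interval 0.85 to 1.97, adjusted p = 0.00114). By the thresholds used, *Nlrp4b* was therefore higher than in control at E2C alone. At L2C it was 5.11 and 8.36 FPKM against 4.03 and 2.53 (0.84, SE 0.22, limma adjusted p = 0.00233), under 2-fold. It passed there with a pseudocount of 0.1, without control replicate 1 (1.10) and without *Tdp43* oKO replicate 1 (1.15). The *Tdp43* oKO effect was larger at E2C than at 1C by a log2 of 1.42 (adjusted p = 0.00963, with 2% of 7759 genes called in that direction), a call lost without either control E2C library (adjusted p of 0.0613 and 0.108).

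Of the *Nlrp9* genes, *Nlrp9a* was higher in every *Tdp43* oKO library than in both controls at all 5 stages, a separation that 29.1%, 25.7%, 19.2%, 20.5% and 15% of all genes had at FGO, MII, 1C, E2C and L2C. At 1C it was 179.9 and 166 FPKM in *Tdp43* oKO and 126 and 90.8 in control. The groups were apart by less than 2-fold (log2 0.69, SE 0.15, adjusted p = 0.00505). At E2C it was 138 and 152 FPKM against 68.0 and 66.5. Both mutant libraries were more than 2 times either control. In E2C *Nlrp9a* was higher than in control by a log2 of 1.10 (SE 0.23, 95% interval 0.61 to 1.59, limma adjusted p = 0.00295). This call was lost without control replicate 1 and without control replicate 2. With quantile normalization the change was 0.97, under 2-fold. At L2C it was 13.8 and 15.8 FPKM against 4.85 and 4.56, a clear separation and the largest L2C difference of the 8 genes on this scale (1.47, SE 0.19, 95% interval 1.07 to 1.87, adjusted p = 3e-06).

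*Nlrp9b* was close between genotypes up to 1C, where it was 135 and 150 FPKM in *Tdp43* oKO and 123 and 139 in control (log2 0.13, SE 0.16, adjusted p = 0.623). At E2C it was 35.2 and 36.9 FPKM in *Tdp43* oKO and 16.1 and 15.9 in control. The replicates nearly coincided and the genotypes were apart (1.12, SE 0.24, adjusted p = 0.00362), although the adjusted p was 0.0631 and 0.0613 without control replicate 1 or 2 and the change was 0.97 with a pseudocount of 5. At L2C it was 6.02 and 7.24 FPKM against 2.12 and 1.51, again higher in *Tdp43* oKO (1.44, SE 0.20, limma adjusted p = 6.25e-06).

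*Nlrp9c*, with the promoter sequence shared with *Nlrp9a*, was not called before L2C, and where its libraries did not overlap (FGO, MII and E2C) the *Tdp43* oKO values were the lower ones. At E2C it was 574 and 562 FPKM in *Tdp43* oKO and 730.4 and 597 in control, lower by a small margin (log2 -0.22, SE 0.24, 95% interval -0.72 to 0.28, adjusted p = 0.574). At L2C it was 33.8 and 47.0 FPKM against 17.4 and 20.6, with both mutant libraries higher, and it was called (1.03, SE 0.20, limma adjusted p = 0.000147). That call was lost without *Tdp43* oKO replicate 2 (0.80) and without control replicate 1 (0.92). Its L2C effect exceeded its E2C effect by 1.25 (adjusted p = 0.00335). *Nlrp9c* was also the gene of the set with the highest E2C level, at 66.4% of the summed FPKM of the 8 genes in control.

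*Nlrp14*, the most abundant member in oocytes, was 589 and 574 FPKM in *Tdp43* oKO 1C and 371 and 294 in control. Both mutant libraries were higher (log2 0.81, SE 0.15, 95% interval 0.50 to 1.13, adjusted p = 0.00109), which stays under 2-fold. At E2C it was 70.5 and 98.01 FPKM against 62.5 and 48.6 (0.58, SE 0.23, adjusted p = 0.081), and at L2C 31.6 and 41.1 against 25.3 and 29.4 (0.39, SE 0.19, adjusted p = 0.0691). All mutant values were above the controls at these stages, and none passed both thresholds. After median-ratio scaling the L2C difference was 1.25 and did.

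In *Tdp43* oKO E2C, then, 3 of the 8 genes were called higher (*Nlrp4b*, *Nlrp9a* and *Nlrp9b*), where 3.7% of all genes were, and 1 lower. With either control E2C library left out, 2 were called, *Nlrp4b* and *Nlrp4e*. In *Tdp43* oKO L2C 4 were called higher (*Nlrp4a*, *Nlrp9a*, *Nlrp9b* and *Nlrp9c*) and none lower, where 6.8% of 7760 genes were called higher and 40.7% lower. The median of the 8 genes was 0.93, beside -0.79 for all genes. After median-ratio scaling 7 of the 8, all but *Nlrp4e*, were called higher, where 1239 of 7760 genes were. The share of all calls that were higher was then 47% in place of 14.3%. With a pseudocount of 5 only *Nlrp9a* was called. Without *Tdp43* oKO replicate 2 the calls were *Nlrp9a* and *Nlrp9b*. Scaling moved the 1C and E2C values by 0.13 and 0.14, with 56.9% and 42.3% of calls higher in place of 41.6% and 31.3%, and changed no call of the 8 genes at either stage.

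Marker genes of other cell types and stages moved with these comparisons, and their part in the results was not tested. At 1C the summed level of 10 blood and immune markers was 2.36 to 6.47 FPKM in *Tdp43* oKO and 23.99 to 200.3 in control, with *Hbb-b1* listed at 0 in both *Tdp43* oKO libraries. The higher control sum is mostly *S100a8* and *S100a9*, at 161.1 and 30.28 FPKM in control 1C replicate 1. In Trim-away L2C these markers summed to 123.6 to 150.4 FPKM in the libraries titled KD and 56.15 to 81.98 in Inj-Contr. Of 4 tested there 0 were called, and *Hba-a1* reached 138.2 FPKM in KD replicate 2. At E2C the 6 early 2-cell markers summed to 221 to 688 FPKM in *Tdp43* oKO and 1064 to 1209 in control, and at L2C to 217 to 245 against 39.1 to 42.0. The direction of these stage markers thus turned between E2C and L2C, with 4 of 6 called lower and then 6 of 6 higher. The 10 oocyte markers, which include genes stored in the egg, summed to 26027 to 30023 FPKM in *Tdp43* oKO E2C and 18765 to 23635 in control, and to 4605 to 5198 against 5315 to 5963 at L2C. That L2C sum is mostly *Dppa3* (log2 -0.79). The E2C sum is mostly *Dppa3* as well, at 28653 FPKM in *Tdp43* oKO E2C replicate 2. With limma, 0 of the 10 oocyte markers were called at E2C and 1 had an unadjusted p under 0.05. Of 9 oocyte markers tested at L2C, 3 were called higher (*Gdf9*, *Oosp1* and *Nobox*) and 0 lower with limma, 7 had an unadjusted p under 0.05, and the median was 0.65, the direction of the NLRP members called there. The 7 male germ markers summed to 1.48 to 1.72 FPKM in *Tdp43* oKO E2C against 12.2 to 17.9, with *Prm1*, *Tnp2* and *Acr* at 0 in both genotypes. Of the 7, 3 had a mean of at least 1 FPKM in control and 1 in *Tdp43* oKO, and *Prm2* reached 13.6 FPKM in control E2C replicate 2. The 9 cumulus and granulosa markers summed to 2.73 to 3.84 against 0.883 to 1.09 at E2C, with *Inha* and *Foxl2* at 0 in both genotypes. Of the 9, 0 had a mean of at least 1 FPKM in control and 1 in *Tdp43* oKO. The 4 oviduct markers summed to 9.21 to 12.9 FPKM in *Tdp43* oKO L2C and 22.2 to 23.6 in control, where 1 of the 4 had a mean of at least 1 FPKM. That sum is mostly *Epcam*, which averaged 12.3 FPKM over the 24 libraries. *Ovgp1*, *Krt18* and *Foxj1* averaged 0.632, 0.237 and 0.00745.

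**Figure D2:**
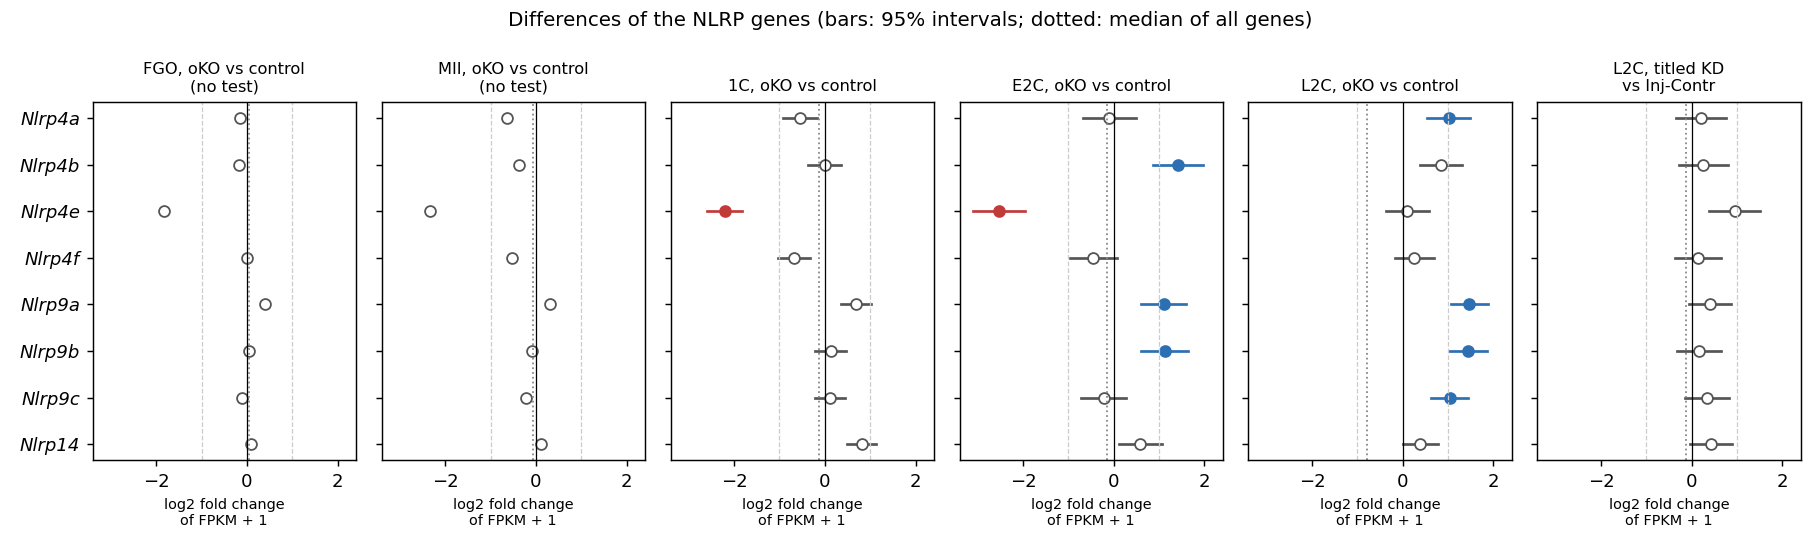
Log2 fold change of FPKM + 1 for the 8 genes in *Tdp43* oKO against control at 5 stages and in the L2C libraries titled KD against Inj-Contr, with 95% intervals from limma (none for FGO and MII, which chose the genes). Filled points passed both thresholds, dashed lines mark 2-fold and the dotted line the median of all genes. *Nlrp4e* lies at -2.21 at 1C and -2.53 at E2C, and *Nlrp9a* and *Nlrp9b* at 1.47 and 1.44 at L2C.

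In Trim-away L2C the other 7 genes had log2 differences from 0.15 (*Nlrp4f*) to 0.43 (*Nlrp14*). *Nlrp9a* was 24.6 and 20.2 FPKM in the libraries titled KD and 13.99 and 19.7 in Inj-Contr, not overlapping (0.40, 95% interval -0.07 to 0.87, adjusted p = 0.179). *Nlrp9b* was 5.66 and 2.93 FPKM against 3.18 and 3.98, which overlapped (0.17, 95% interval -0.33 to 0.66, adjusted p = 0.624). *Nlrp9c* was 153 and 153 against 99.5 and 147 (0.34, adjusted p = 0.27). The libraries did not overlap for 4 of 8 genes, all higher in those titled KD (27.2% of all genes). Set against *Tdp43* oKO L2C, the Trim-away effect was smaller for *Nlrp9a* (-1.07, adjusted p = 0.0107) and *Nlrp9b* (-1.28, adjusted p = 0.00501), a direction in which 3.19% of 8152 genes were called. Both calls were lost without KD replicate 2 (-0.93 and -0.90) and with a pseudocount of 5 (-0.70 and -0.67), and that of *Nlrp9a* also without *Tdp43* oKO replicate 2 (-0.98) or Inj-Contr replicate 2 (-0.83). The share of these differences that was higher went from 88.7% to 37.3% of calls after scaling.

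Among the 5 control stages, 7 of the genes were highest in FGO, MII oocytes or 1C and *Nlrp9c* in E2C, and all 8 were lowest at L2C. *Nlrp4e* and *Nlrp4a* rose from FGO to MII oocytes by a log2 of 1.16 (adjusted p = 1.48e-05) and 1.13 (adjusted p = 1.69e-05), 2 of 8 where 7.98% of 8619 genes were called higher. Without control FGO replicate 2 they were 0.90 and 0.88, under 2-fold. *Nlrp4f* (0.87) and *Nlrp9c* (0.71) were higher by less than 2-fold, and scaling moved this comparison by 0.26, with 40.1% of calls higher in place of 22.2%. From MII to 1C only *Nlrp14* fell past the thresholds, by 1.06 on the log2 scale (adjusted p = 8.58e-06, with 11.1% of 8234 genes called lower), and it did not after quantile normalization (-0.77) or without control 1C replicate 2 (-0.90).

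Between control 1C and E2C 5 of the 8 genes fell, where 37.4% of 8023 genes did. They were *Nlrp4b* (log2 -3.30), *Nlrp9b* (-2.95), *Nlrp14* (-2.56), *Nlrp4f* (-2.50) and *Nlrp4a* (-1.96). *Nlrp4e* (-0.86) and *Nlrp9a* (-0.66) were lower by less than 2-fold. *Nlrp9c* went the other way, from 392 and 305 FPKM in 1C to 730.4 and 597 in E2C (0.93, SE 0.20, adjusted p = 0.000551). The median of all genes fell by 0.72 in this step, and after scaling *Nlrp9c* was 1.76 higher and called, as it was without control 1C replicate 1 (1.11) or control E2C replicate 2 (1.08), with 53.3% of all calls higher in place of 18.2%.

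From control E2C to L2C 7 of 8 fell, where 23% of 8183 genes did, from -1.81 for *Nlrp4b* to -5.05 for *Nlrp9c*, and *Nlrp14* was at -0.99. It was called without control E2C replicate 2 (-1.17) or control L2C replicate 2 (-1.09). From MII to L2C all 8 fell, by 4.30 (*Nlrp9c*) to 6.20 (*Nlrp4a*) on the log2 scale, where 36.6% of 8849 genes fell, and they did so under each alternative run. The summed FPKM of the 8 genes went from 1830 and 2109 in control FGO to 74.3 and 83.1 in control L2C. These stage comparisons share libraries with each other and with the comparisons of genotypes.

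The make-up of the set changed with the losses. *Nlrp9c* held 66.4% of the summed FPKM in control E2C and 24.1% in control L2C, but 61.8% in Inj-Contr L2C and 60.4% in those titled KD. It was 99.5 and 147 FPKM in Inj-Contr L2C and 17.4 and 20.6 in L2C of *Tdp43* flox/flox females. The 2 kinds of control differ at least in injection and in the culture that followed it, and the cause of this difference was not tested. The ratio of summed *Nlrp9* to summed *Nlrp4* FPKM was 0.656 and 0.578 in control 1C and 1.11 and 1.06 in *Tdp43* oKO 1C, and 4.10 and 3.50 against 5.03 and 4.23 at E2C, and the *Tdp43* oKO libraries were above their controls at FGO, MII and L2C too (1.83 and 1.46 against 0.991 and 0.982 at L2C). In Trim-away it was 4.23 and 4.26 in the libraries titled KD and 4.43 and 4.39 in Inj-Contr. The *Nlrp4* sum includes *Nlrp4e*, which was 17.8% and 18.5% of it in control E2C and 2.92% and 3.69% in *Tdp43* oKO E2C. In Trim-away that share was 30.1% and 23.5% in the libraries titled KD and 15.9% and 17.5% in Inj-Contr. The ratios thus carry the gene the set was chosen by, and they were not computed without it. The share of *Nlrp4e* in the *Nlrp4* sum was smaller before E2C, at 5.98% and 4.92% in control FGO, 6.69% and 6.67% in control MII and 7.13% and 6.65% in control 1C.

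**Figure D3:**
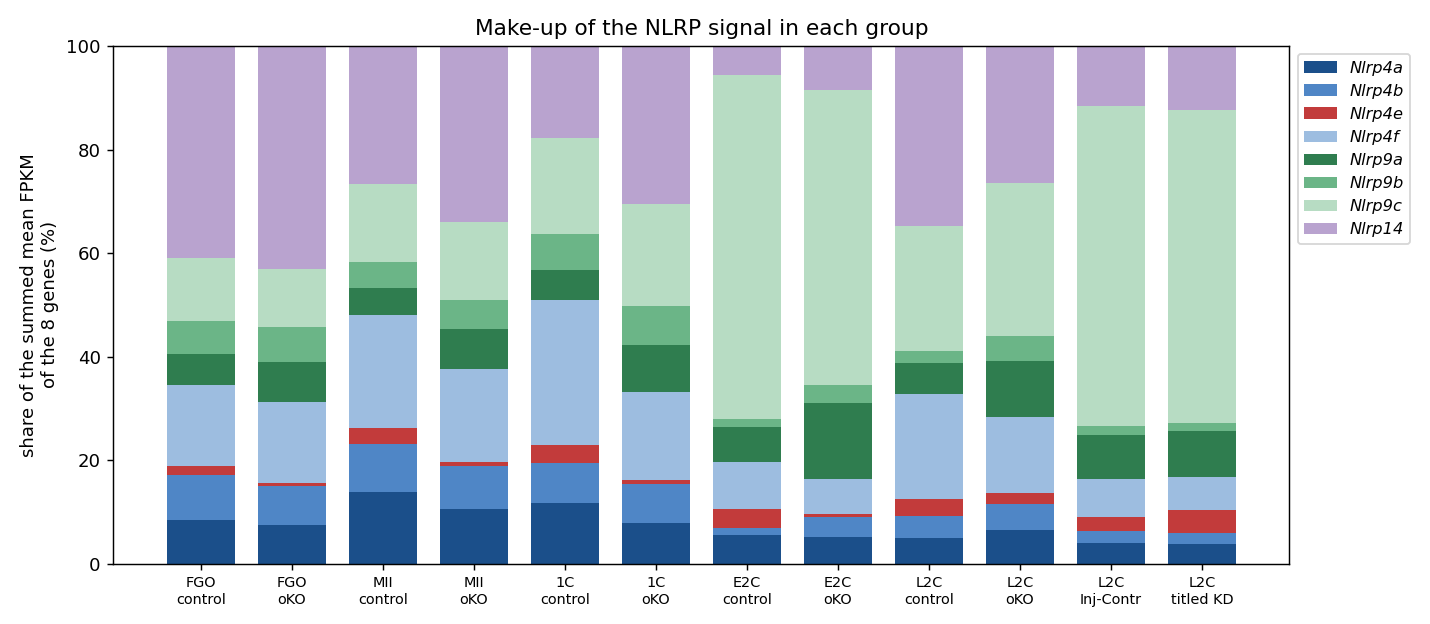
Share (%) of each gene in the summed mean FPKM of the 8 genes, for the 12 groups. *Nlrp14* is the largest part in control FGO (40.9%) and *Nlrp9c* in control E2C (66.4%) and Inj-Contr L2C (61.8%), and *Nlrp4e* is the smallest in control FGO (1.9%).

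Across the 24 libraries, log2(FPKM + 1) of the members varied together, which is described here without a test because the points share stages, genotypes and library totals. Pearson's r was 0.846 to 0.987 over the 15 pairs without *Nlrp4e* or *Nlrp9c*, 0.607 to 0.777 over the 7 pairs with *Nlrp4e* and 0.53 to 0.869 over the 7 with *Nlrp9c*. Of 4695 genes compared, the one most like *Nlrp4e* was *Ggct*, which encodes gamma-glutamylcyclotransferase of glutathione metabolism (r = 0.971, n = 24), ahead of *Hus1*, a subunit of a DNA damage checkpoint clamp (0.925), *Phf6* (0.914), *Cep83* (0.907) and *Prrg1* (0.906). *Ggct* in *Tdp43* oKO was 18% of control in FGO, 21.8% in MII, 23.7% in 1C, 21.7% in E2C and 49.5% in L2C, and 207% of Inj-Contr in the libraries titled KD, beside 25.7%, 19%, 20.4%, 15.3%, 111% and 208% for *Nlrp4e*. *Hus1* was 62.1% of control in FGO and 41.2% in E2C. The other members were most like 1 other gene each, namely *Nlrp4a* and *Gm5065* (0.991), *Nlrp4b* and *Rgs2* (0.992), *Nlrp4f* and *Tbc1d14* (0.984), *Nlrp9a* and *Nae1* (0.986), *Nlrp9b* and *Zfp58* (0.992), *Nlrp9c* and *Mthfs* (0.973), and *Nlrp14* and *Oas1e* (0.987).

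**Figure D4:**
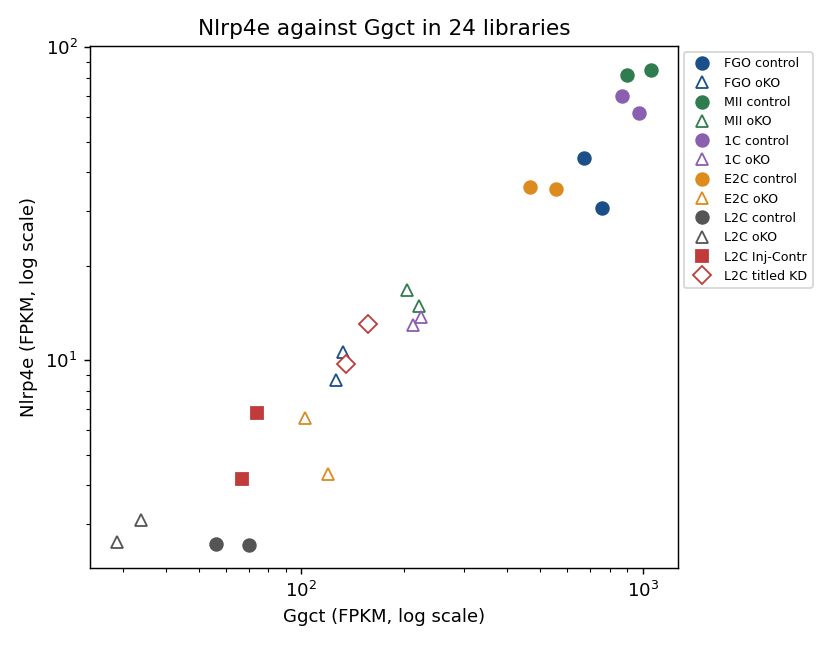
FPKM of *Nlrp4e* against *Ggct* (both axes log) in the 24 libraries, marked by group. Pearson's r of log2(FPKM + 1) was 0.971, and the points share stages, genotypes and library totals.

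Among 13 other NLRP genes listed, 11 were in the table and 2 to 4 had values high enough to test. *Nlrp5*, the neighbour of *Nlrp4e* and a core member of the subcortical maternal complex, was 39.1 and 37.8 FPKM in *Tdp43* oKO E2C and 11.9 and 10.2 in control. Both mutant libraries were over 3 times either control, and *Nlrp5* was called higher (log2 1.72, SE 0.37, limma adjusted p = 0.0036), the reverse of the difference of *Nlrp4e* 23.6 kb away. It was not called at 1C (0.20) or L2C (0.92, adjusted p = 0.0131). *Nlrp2*, an oocyte NLRP gene, was 0.68 higher at E2C (adjusted p = 0.0632) and not called. With limma, 0 of these other NLRP genes were called at 1C, L2C and in Trim-away (1, 2 and 0 at an unadjusted p under 0.05). Of 23 NLR and inflammasome genes, 2 to 5 could be tested and 0 were called in any of the 4 tested comparisons of genotype or treatment (3, 2, 1 and 0 at an unadjusted p under 0.05 in 1C, E2C, L2C and Trim-away), the most abundant being *Txnip*, a thioredoxin inhibitor, at a mean of 76.3 FPKM, and *Nek7*, a kinase of the NLRP3 inflammasome, at 3.96 FPKM.

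Of 8 genes of the subcortical maternal complex, *Nlrp4f* among them, 0 were called at 1C with limma (3 at an unadjusted p under 0.05). In *Tdp43* oKO 3 were called higher at E2C and 1 at L2C, and 2 were called higher in Trim-away. The shares of all genes called higher were 3.7% at E2C, 6.8% at L2C and 7.79% in Trim-away. The complex genes called at E2C were *Khdc3* (log2 2.57), *Nlrp5* and *Ooep* (1.03). *Ooep*, an RNA-binding subunit, was also called higher in *Tdp43* oKO L2C (99.0 and 91.5 FPKM against 23.9 and 24.2, 1.94, limma adjusted p = 1.43e-08) and in the libraries titled KD (27.9 and 34.4 against 9.92 and 11.2, 1.47, adjusted p = 2.33e-05). In Trim-away *Zbed3* was the second (1.67). Of 3 genes whose products are known to act with NLRP14, *Kpna2*, a nuclear import receptor, was called lower at L2C, at 66.0 and 57.9 FPKM in *Tdp43* oKO against 151 and 185 in control (-1.42, limma adjusted p = 1.37e-05). That is -0.63 relative to the median of all genes, and it was not called after scaling. *Kpna2* was also called lower in Trim-away (-1.11, limma adjusted p = 0.00305). *Uhrf1*, which maintains DNA methylation, was not called in any of these comparisons, and *Slc8b1* was below the filter.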

How the data were processed

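RNA-seq of 24 libraries was used. Per the labels and the paper's methods, smart-seq2 reads were mapped to mm9 and summarised over RefSeq genes. Tools in the submitters' notes include HISAT2 2.2.1, StringTie 2.1.2 and Trim Galore 0.6.6. The authors deposited FPKM, fragments scaled to transcript length and to the mapped fragments of a library, so that reads cannot be recovered and a transcript filling a library lowers the others. Of 24085 rows, 2 without values and 27 with names turned into dates were left out. The 16 Stacc-seq samples were not analysed here.

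One model of log2(FPKM + 1), a scale that understates changes of low genes, was fitted over the 12 groups with limma 3.58.1 in R 4.3.3 (trend, robust, 1 weight per collection, 12 residual degrees of freedom). The study's count-based test cannot be run on FPKM. Tests were limited to genes whose FPKM averaged 1 or more in the compared libraries, with p-values adjusted by the Benjamini-Hochberg method. The code was tested on simulated data. Sequences were read from mm9 and RefSeq tables with Python 3.11.15 and Biopython 1.88. The members and all gene lists were chosen with earlier results of these data known. All 9 genes are named, as are list members that were called or had the 2 highest mean FPKM (for marker lists the sums only), and the genes most like each member by correlation (5 for *Nlrp4e*, 1 for the others, mean of at least 5 FPKM). Alternatives were pseudocounts of 0.1 and 5, a filter at 5 FPKM or none, median-ratio scaling, quantile normalization, no weights, only the libraries compared, a replicate block, no fold threshold and leaving out each library. A block with crossed replicate numbers was added after seeing the data.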

Additional observations from a re-analysis of the deposited data

Results flagged for a closer look

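With 2 libraries in each group, no library could be set apart from the others of its group. Between effects, 6 differences passed both thresholds with limma (adjusted p of 2.2e-05 to 0.0183). The effect of *Tdp43* oKO was higher at E2C than at 1C for *Nlrp4b* (log2 1.42), where 2% of 7759 genes were called higher. That call was lost without either control E2C library. The *Tdp43* oKO effect was higher at L2C than at E2C for *Nlrp4e* (2.63), *Nlrp9c* (1.25) and *Nlrp4a* (1.10, adjusted p = 0.0183 with limma). There 8.51% of 7836 genes were called higher. The call of *Nlrp4a* was lost without each of control E2C replicate 1 (1.02, adjusted p = 0.0934), control E2C replicate 2 (1.18, 0.0554), control L2C replicate 1 (0.96) and *Tdp43* oKO L2C replicate 2 (0.86), and also with a pseudocount of 5 (0.73) and with no filter on low values (adjusted p = 0.0529). The share of calls in this comparison that was higher was 55.9% after scaling and 22.3% before. The Trim-away effect at L2C was lower than that of *Tdp43* oKO for *Nlrp9a* (-1.07) and *Nlrp9b* (-1.28), where 3.19% of 8152 genes were called lower. Both calls were lost without KD replicate 2 and with a pseudocount of 5. That of *Nlrp9a* was also lost with no filter on low values and without *Tdp43* oKO replicate 2 or Inj-Contr replicate 2.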

How the results depend on the processing

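Of 96 results for single members, 1362 alternatives gave the same call in 1287, lost it in 32 and gained it in 43, and none turned the direction of a call. The number of members called moved by over 1.5 times as follows. With median-ratio scaling it was 7 for *Tdp43* oKO at L2C, 1 in Trim-away, 2 for the difference of effects between E2C and 1C, 6 between L2C and E2C and 5 between Trim-away and *Tdp43* oKO. With quantile normalization it was 7 at L2C, 1 in Trim-away, 5 for control MII against FGO, 0 for control 1C against MII, and 6 and 5 for the last 2 differences of effects. A pseudocount of 5 gave 1 at L2C and 0 for Trim-away against *Tdp43* oKO, and a pseudocount of 0.1 gave 1 in Trim-away. A filter at 5 FPKM or none gave 1 for Trim-away against *Tdp43* oKO. Without the fold threshold the counts were 5 at 1C, 1 in Trim-away, 5 for MII against FGO, 4 for 1C against MII and 8 for E2C against 1C. Smaller moves were 3 at E2C (quantile normalization, pseudocount of 5), 3 (filter at 5 FPKM) and 5 (pseudocount of 0.1, no fold threshold) at L2C, 3 for MII against FGO and 6 for E2C against 1C (both scaling), 8 for L2C against E2C (pseudocount of 0.1, quantile normalization, no fold threshold) and 2 for the difference of L2C and E2C (pseudocount of 5, no filter). With each library left out in turn (where a lone library is assumed to vary like the other groups), the counts ran from 1 to 1 at 1C, 2 to 4 at E2C, 2 to 5 at L2C, 0 to 1 in Trim-away, 0 to 2 for MII against FGO, 0 to 1 for 1C against MII, 5 to 6 for E2C against 1C, 7 to 8 for L2C against E2C, 8 to 8 for L2C against MII, 0 to 2 for the difference of E2C and 1C, 2 to 4 for that of L2C and E2C and 0 to 3 for that of Trim-away and *Tdp43* oKO.

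The replicate block left every count as it was (1 at 1C, 4 at E2C, 4 at L2C and 0 in Trim-away). Deviations of same-numbered libraries correlated weakly and with no constant sign (r of -0.222 in FGO to 0.215 in 1C over all genes tested). The numbers were therefore not taken to pair libraries. With the numbers crossed in FGO and in Trim-away, where r was negative (-0.136 in Trim-away), 0 members were called in Trim-away, 2 for MII against FGO and 2 for Trim-away against *Tdp43* oKO. Each group held 2 libraries of unknown depth, the fold thresholds fall on low FPKM at L2C, and reads from near-identical copies may be shared.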
